A study of Mus musculus with 6 samples.

Results

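Potassium channel genes were taken as the 84 genes, of 20234 in the deposited table of the mouse hippocampal CA1 field, whose symbol starts with Kcn. By their symbols 60 encode pore-forming subunits and 24 encode auxiliary subunits, silent subunits or a regulator. The cells came from 6 male wild-type C57Bl6 mice at postnatal day 28, of which 3 had received placebo (solvent; mice 1, 3 and 5) and 3 had received 5000 IU/kg recombinant human EPO (rhEPO; mice 2, 4 and 6), as 1 intraperitoneal injection 6 h before CA1 was dissected. Single cells were profiled by Drop-seq, in which each transcript is tagged on a bead with a cell barcode and a unique molecular identifier (UMI), so that 1 UMI stands for 1 captured 3′ end. The labels also carry D1 (placebo mice 1 and 3, EPO mouse 2) or D2 (placebo mouse 5, EPO mice 4 and 6), whose meaning is not stated. Values listed by mouse follow the order 1, 3, 5 for placebo and 2, 4, 6 for EPO. Each mouse is 1 library, and p-values measure the spread between mice.

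Potassium channels let potassium leave or enter the cell and so set the resting potential, the width and spacing of action potentials and, in glia, the uptake of potassium that active neurons release. Voltage-gated (Kv) channels are assembled from 4 pore-forming subunits, to which auxiliary proteins attach, such as the KChIP proteins on Kv4 channels or the beta subunits on Kv1 channels. Silent subunits (Kcnf1, Kcng, Kcns and Kcnv1) reach the membrane only together with Kv2 subunits. Inward rectifiers (Kcnj) and tandem-pore channels (Kcnk) act near rest, and calcium-activated (Kcnma1, Kcnn) and sodium-activated (Kcnt) channels follow activity. In CA1 pyramidal neurons, dendritic Kv4 channels and the M-current of Kv7 (Kcnq) channels are textbook brakes on excitability.

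For a view of the 2 ends of the range of these genes between CA1 neurons and glia, the bases before the annotated start are shown for the member that was lowest and the member that was highest in CA1 pyramidal-like cells against glia, among genes that passed that test and have a single entry in the promoter table of RefSeq (GRCm38.p6). Of the 84 members 60 have an entry, with 84 starts in all. Capitals mark exact matches on either strand to 4 motifs, none of which overlap here. The GC box was searched as GGGCGG. The TATA box was searched as TATAAA. The cyclic AMP response element was searched as TGACGTCA. The CCAAT box was searched by its own 5 letters. Kcnj10, high in glia, is shown on the plus strand of chr1:172340960-172341209, and Kcnj3, high in neurons, on the plus strand of chr2:55435720-55435969.
Kcnj10: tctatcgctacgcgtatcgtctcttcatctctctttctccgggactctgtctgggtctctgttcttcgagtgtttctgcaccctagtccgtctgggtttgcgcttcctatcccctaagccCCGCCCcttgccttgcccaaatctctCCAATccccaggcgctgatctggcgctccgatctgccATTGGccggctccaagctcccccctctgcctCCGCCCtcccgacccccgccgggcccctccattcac
Kcnj3: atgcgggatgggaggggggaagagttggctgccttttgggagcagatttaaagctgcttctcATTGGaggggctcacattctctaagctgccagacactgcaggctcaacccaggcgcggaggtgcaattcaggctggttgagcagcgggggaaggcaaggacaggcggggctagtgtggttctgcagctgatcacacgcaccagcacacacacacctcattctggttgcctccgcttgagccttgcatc
The stretch before Kcnj10 held 2 GC boxes and 2 CCAAT boxes at 62% G and C, and that before Kcnj3 held 1 CCAAT box at 58.4% G and C. Among all 32851 starts of the table, 32.7% held a GC box within 250 bases, 33.8% a CCAAT box, 12.4% a TATA box and 1.55% a cyclic AMP response element. Among the 84 starts of member genes the shares were 47.6%, 28.6%, 3.57% and 0%. These letter matches are a description and say nothing of binding.

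Barcodes with more than 1000 and at most 8000 detected genes and at most 40% mitochondrial UMIs were retained, which left 973 of 6000 barcodes, with the fewest (43) in placebo mouse 3 and the most (271) in EPO mouse 4. The retained cells held 6910600 UMIs, of which 21212 belonged to potassium channel genes, 0.241% to 0.345% of a mouse's UMIs. Among retained cells, 26 barcode sequences occurred in 2 libraries, and all 26 lay in placebo mouse 1 and EPO mouse 4. The copy in EPO mouse 4 held a median of 0.259 of the UMIs of the copy in placebo mouse 1, its log counts correlated with those of its partner at a median of 0.76, and all 26 pairs fell into the same class. These barcodes held 45.3% of the UMIs of placebo mouse 1 and 6.60% of those of EPO mouse 4. The cause was not tested, so counts of called genes are given with and without them, while the levels of each mouse include them. Cells were clustered without using potassium channel genes and named from standard markers, which gave 399 CA1 pyramidal-like, 220 other glutamatergic-like, 45 GABAergic-like, 77 astrocyte-like, 129 oligodendrocyte-like, 37 oligodendrocyte precursor-like, 18 microglia-like and 48 endothelial-like cells. The clusters of other glutamatergic-like cells scored highest, among the glutamatergic lists, on markers of the subiculum, which borders CA1. Of its 6 markers 4 were detected in a cluster of 136 cells and 5 in a cluster of 84 cells. In the larger cluster only Tshz2 of this list was among the leading genes, so its identity is less certain. "Other neurons" below are the other glutamatergic-like and GABAergic-like cells together, and "glia" the astrocyte-, oligodendrocyte-, oligodendrocyte precursor- and microglia-like cells. The CA1 pyramidal-like class was made of different clusters in different mice: 1 cluster of 38 cells was found only in placebo mice 1 and 3 and in EPO mouse 4, and another of 122 cells drew 65 from placebo mouse 5 and 34 from EPO mouse 6.

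Levels are given as UMIs per 1000000 UMIs of the class (CPM). Because UMIs count transcripts and not fragments, no length correction is needed, but genes can differ in how well their 3′ ends are captured. Of the 84 genes, 82 had at least 1 UMI in retained cells (Kcne2 and Kcnk7 had none), 39 had at least 100, and 28 had fewer than 20. The 12 genes with the most UMIs, among them Kcnd2, Kcnq3, Kcnh7, Kcnma1, Kcnj3, Kcna1 and Kcnab1, held 63.7% of all potassium channel UMIs. Kcnd2, a Kv4 subunit that carries the dendritic A-type current, led with 2090 UMIs, followed by Kcnq3, a subunit of the M-current channel, with 1989, and Kcnh7, an ERG-type channel, with 1574. By family, the Kv7 genes (Kcnq) made up 13.6% of the potassium channel UMIs, the inward rectifiers 13.0% and the Kv4 genes 10.6%, while the 4 Kcne genes together made up 0.0707%. Potassium channel genes took a larger share of the UMIs of neurons than of other cells: 0.362% ± 0.0180 in CA1 pyramidal-like cells and 0.349% ± 0.0275 in other glutamatergic-like cells, against 0.175% ± 0.0526 in astrocyte-like and 0.129% ± 0.0209 in oligodendrocyte-like cells (SD, n = 6 mice each). In both glutamatergic classes the lowest mouse, at 0.335% and 0.313%, lay above the highest mouse of both glial classes, at 0.268% and 0.152%.

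**Figure D1:**
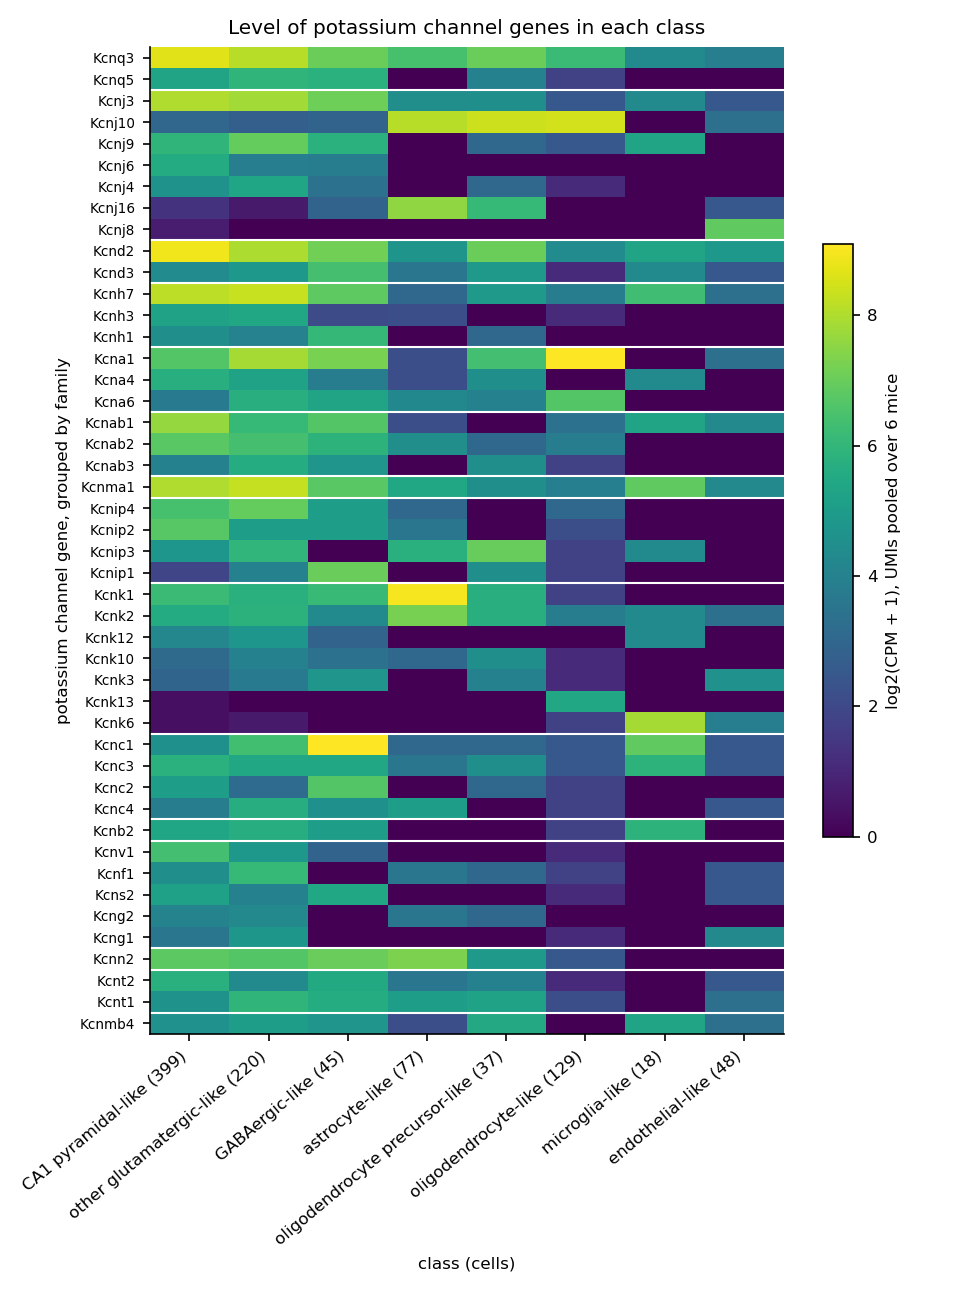
Level of potassium channel genes (rows, grouped by family and separated by white lines) in 8 classes of cells (columns, number of cells in brackets), as log2(CPM + 1) of UMIs pooled over 6 mice; most genes with at least 60 UMIs plus Kcnk13, Kcnj8 and Kcnk6. Most genes are brightest in the 3 neuronal columns, while Kcnj10 is bright in the astrocyte-like, precursor and oligodendrocyte-like columns and Kcnk1 in the astrocyte-like column.

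CA1 pyramidal-like cells were compared with glia within mice, to find the channels that separate them. For 27 of the 84 genes the UMI counts were high enough to test. Of these 20 were higher in CA1 pyramidal-like cells and 4 were lower, where 31.4% and 30.8% of all 6254 genes tested were higher and lower. The remaining 57 members were too sparse to test, and the filter on low counts passes a gene more easily when it is high in at least 1 class. All 20 genes called higher were higher in 6 of 6 mice, the same mice that gave the call. The share over all genes called was not counted, so this is no further support. Without the shared barcodes of EPO mouse 4 the counts were 20 and 4, and without them in both mice 19 and 4. In that last setting the log2 fold change was 3.68 for Kcnd2, 5.67 for Kcnv1, 4.87 for Kcnab1, 3.97 for Kcnj3 and -6.03 for Kcnj10.

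Among Kv channels and their partners, Kcnd2, Kcnip2 and Kcnip4 of the dendritic A-type channel were higher in CA1 pyramidal-like cells than in glia, while Kcnip3, also of the KChIP family, did not pass the test (-0.45 ± 0.39). Kcnd2 had 411 to 531 CPM (median 469) over the 6 mice in CA1 pyramidal-like cells, 199 to 269 CPM (median 242) in other neurons and 0 to 68.4 CPM (median 26.7) in glia. The 3 ranges did not overlap. The log2 fold change of Kcnd2 from glia to CA1 pyramidal-like cells was 3.50 ± 0.24 (SE; edgeR quasi-likelihood test, adjusted p = 1.0e-18). Kcnip2, a KChIP subunit of Kv4 channels, had 64.2 to 141 CPM (median 98.1) in CA1 pyramidal-like cells and 0 to 14.7 CPM (median 0) in glia. Its log2 fold change was 4.14 ± 0.44 (adjusted p = 4.1e-12). Kcnip4, another KChIP, was higher in CA1 pyramidal-like cells by 3.28 ± 0.43 on the log2 scale (adjusted p = 1.7e-09).

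Kcnv1, a silent subunit that acts only with Kv2 partners, had the largest fitted difference among the genes that were higher, 5.90 ± 0.60 on the log2 scale (adjusted p = 8.5e-13). It had 59.0 to 106 CPM (median 80.4) in CA1 pyramidal-like cells, while glia of 5 mice had no UMI of Kcnv1 and those of placebo mouse 1 had 1. Over all mice 270 UMIs stood against 1, a ratio of 107 with a counting interval of 19.0 to 4231 (exact, 95%, counting error only). Kcnab1, a beta subunit of Kv1 channels, had 175 to 321 CPM (median 200) in CA1 pyramidal-like cells and 0 to 20.5 CPM (median 5.3) in glia, with a log2 fold change of 4.18 ± 0.36 (adjusted p = 6.1e-15). For both genes the ranges of CA1 pyramidal-like cells and glia did not overlap. Kcnh3, an ELK-type channel, stood at 123 UMIs in CA1 pyramidal-like cells and 2 in glia, a ratio of 24.3 (counting interval 6.59 to 203). Its call was lost when cells were put into classes by their own markers, at a log2 fold change of 0.91 (adjusted p = 0.054).

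Kcnq3 had 387 to 514 CPM (median 402) in CA1 pyramidal-like cells and a measurable 48.7 to 141 CPM (median 70.8) in glia, a log2 fold change of 2.08 ± 0.19 (adjusted p = 1.4e-14). Kcnq5, also a Kv7 gene, was higher by 3.18 ± 0.59 (adjusted p = 4.3e-06). Kcnj3, a subunit of the G-protein-gated inward rectifier, rose from 0 to 39.6 CPM (median 8.9) in glia to 209 to 278 CPM (median 257) in CA1 pyramidal-like cells, by 4.16 ± 0.32 on the log2 scale (adjusted p = 1.9e-17). Kcnj6, a further subunit of that channel, was too sparse to test: 155 UMIs in CA1 pyramidal-like cells stood against 0 in glia, at least 20.4-fold higher when glia are set to the limit of 3 UMIs over all mice. Kcnma1, the large-conductance calcium-activated channel, was higher by 3.00 ± 0.27 (adjusted p = 4.0e-14). Kcnn2, a small-conductance calcium-activated channel, was higher by only 1.07 ± 0.28 (adjusted p = 9.9e-04), and its ranges overlapped, at 88.0 to 145 CPM in CA1 pyramidal-like cells and 8.1 to 96.2 CPM in glia. Under limma the call for Kcnn2 was lost (adjusted p = 0.081), as it was when cells were put into classes by their own markers (adjusted p = 0.11). Kcnk2 and Kcnt1 did not pass either, at log2 fold changes of -0.43 ± 0.29 and 0.78 ± 0.43.

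**Figure D2:**
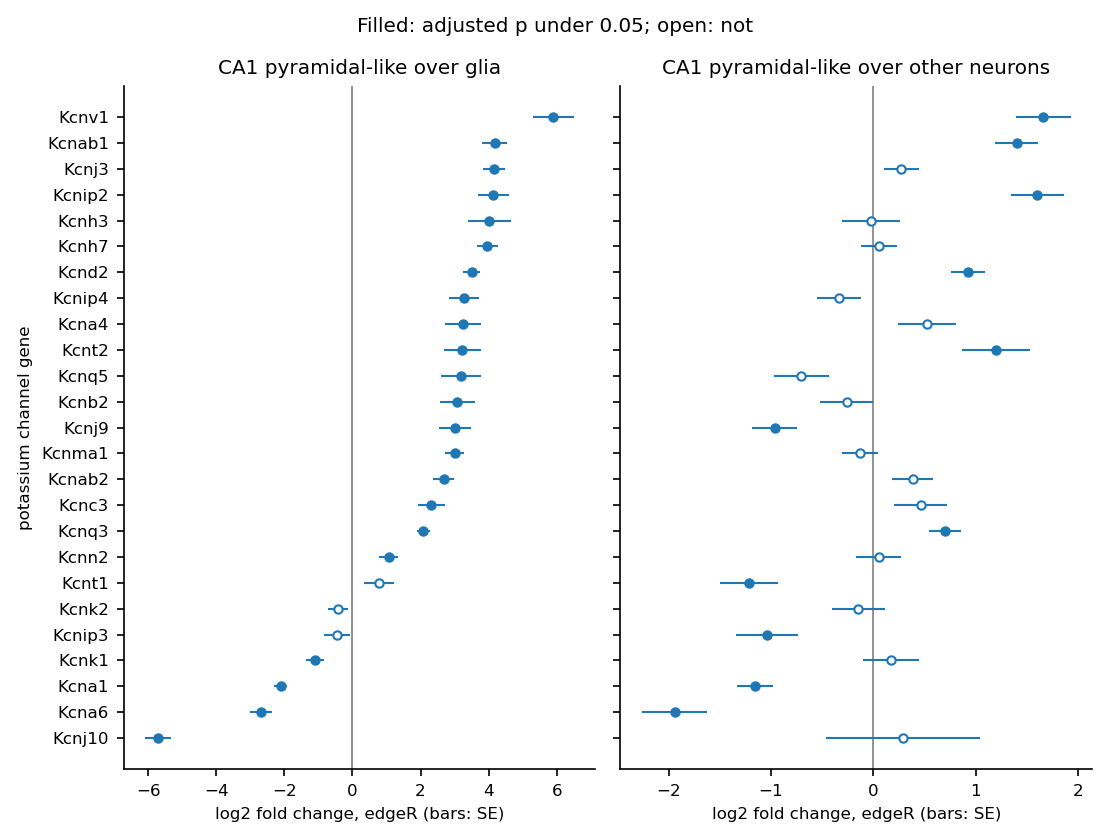
Log2 fold change (edgeR, bars are standard errors) of 25 of the 27 potassium channel genes tested, for CA1 pyramidal-like cells over glia (left) and over other neurons (right); filled points have an adjusted p under 0.05. On the left 18 filled points lie above 0 and 4 below, with Kcnj10 at -5.72; on the right 6 lie above and 5 below, all between -1.94 and 1.66.

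The 4 genes called lower in CA1 pyramidal-like cells than in glia were Kcnj10, Kcna6, Kcna1 and Kcnk1. Kcnj10, the inward rectifier through which glia clear potassium, had 268 to 356 CPM (median 323) in glia and 0 to 26.4 CPM (median 2.9) in CA1 pyramidal-like cells. Its log2 fold change was -5.72 ± 0.37 (adjusted p = 1.2e-12). The highest level in CA1 pyramidal-like cells, 26.4 CPM, was that of placebo mouse 1. Kcna1, a Kv1 subunit known from axons, had 267 to 479 CPM (median 351) in glia, 122 to 296 CPM (median 231) in other neurons and 64.2 to 120 CPM (median 98.4) in CA1 pyramidal-like cells, with a log2 fold change of -2.11 ± 0.18 between CA1 pyramidal-like cells and glia (adjusted p = 1.3e-15). Kcna6, also a Kv1 subunit, was lower in CA1 pyramidal-like cells by -2.68 ± 0.33 (adjusted p = 3.0e-10) in 5 of 6 mice, with no UMI in glia of placebo mouse 3. Kcnk1, a tandem-pore channel, was lower by -1.09 ± 0.27 (adjusted p = 5.0e-04) in 5 of 6 mice, and its glial level ran from 56.8 to 288 CPM.

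Other neurons against glia gave 21 genes higher and 4 lower of the 27, where 29.9% of all genes tested were higher and 29.9% lower. The 4 genes lower were Kcnj10 (-6.00 ± 0.43), Kcnk1 (-1.26 ± 0.29), Kcna1 (-0.95 ± 0.17) and Kcna6 (-0.74 ± 0.29, adjusted p = 0.024). Among the genes higher in other neurons in 6 of 6 mice were Kcnh3 (4.05 ± 0.66, with 2 UMIs in glia), Kcnh7 (3.90 ± 0.32), Kcnj3 (3.88 ± 0.33), Kcnip4 (3.61 ± 0.42) and Kcnb2, a Kv2 gene (3.34 ± 0.51). The 3 comparisons between classes share their cells in pairs and are not independent of each other.

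CA1 pyramidal-like cells against other neurons separated 12 of the 27 genes. Of these 6 were higher and 6 lower in CA1 pyramidal-like cells, where 9.48% of all genes tested were higher and 8.19% lower. Higher were the A-type channel gene Kcnd2 and its subunit Kcnip2, the silent subunit Kcnv1, the beta subunit Kcnab1, the sodium-activated channel Kcnt2 and Kcnq3. Each of these 6 was higher in 6 of 6 mice, without overlap of the ranges. They were called from the same mice, so this is no further support. The share of all genes without overlap was not counted between classes. Kcnv1 had a median of 80.4 CPM against 0 to 35.6 CPM (median 20.3) in other neurons, a log2 fold change of 1.66 ± 0.27 (adjusted p = 1.9e-06). Kcnip2 differed by 1.60 ± 0.26 (adjusted p = 2.2e-06), with 13.7 to 59.3 CPM (median 45.7) in other neurons. Kcnab1 differed by 1.40 ± 0.21 (adjusted p = 8.4e-07), at 0 to 129 CPM (median 68.9) in other neurons. For Kcnd2 the difference was 0.92 ± 0.17 (adjusted p = 2.2e-05) and for Kcnq3 0.70 ± 0.15 (adjusted p = 3.8e-04). Under limma the calls of Kcnd2 and Kcnab1 were lost, at adjusted p-values of 0.21 and 0.053.

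Kcnt2 had 36.7 to 112 CPM (median 57.2) in CA1 pyramidal-like cells and 0 to 34.8 CPM (median 21.4) in other neurons, a log2 fold change of 1.20 ± 0.33 (adjusted p = 0.0059). With cells put into classes by their own markers its log2 fold change was 0.081, at an adjusted p of 0.91, and without EPO mouse 6 it was 0.80, at an adjusted p of 0.11. The call was also lost with cells of at most 20% mitochondrial UMIs (0.79, adjusted p = 0.10) and under limma (adjusted p = 0.053). The other sodium-activated gene, Kcnt1, went the other way in 6 of 6 mice, by -1.21 ± 0.28 (adjusted p = 9.7e-04), with 9.3 to 48.2 CPM in CA1 pyramidal-like cells and 31.4 to 148 CPM in other neurons. Under limma this call was lost, at -1.14 and an adjusted p of 0.085. Kcna1 was lower in CA1 pyramidal-like cells in 6 of 6 mice as well, by -1.16 ± 0.18 (adjusted p = 1.0e-06), without overlap. Kcna6 (-1.94 ± 0.32), Kcnip3 (-1.04 ± 0.30) and Kcnj9, a G-protein-gated inward rectifier (-0.96 ± 0.22), were lower in 5, 4 and 5 of 6 mice. Kcnq5, at -0.70 ± 0.27 with an adjusted p of 0.063, passed without placebo mouse 3 or without EPO mouse 6 (adjusted p of 0.039 and 0.011). It also passed without called doublets, at -0.74 and an adjusted p of 0.042. Without placebo mouse 3, which had 8 CA1 pyramidal-like cells and 9 other neurons, 7 genes were higher and 10 lower. With limma 3 were higher and 1 was lower, so that most of the 6 lower genes lost their call. Without the shared barcodes in both mice 5 genes were higher and 5 lower, and Kcnt2 was too sparse to test. The log2 fold changes were then 1.59 for Kcnv1, 1.60 for Kcnip2, 1.29 for Kcnab1, 0.90 for Kcnd2, 0.56 for Kcnq3, -1.10 for Kcna1 and -1.08 for Kcnt1. The median mitochondrial share of other neurons lay between 2.33% (EPO mouse 6) and 25.7% (EPO mouse 2). With cells of at most 20% mitochondrial UMIs 6 genes were higher and 4 lower.

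**Figure D3:**
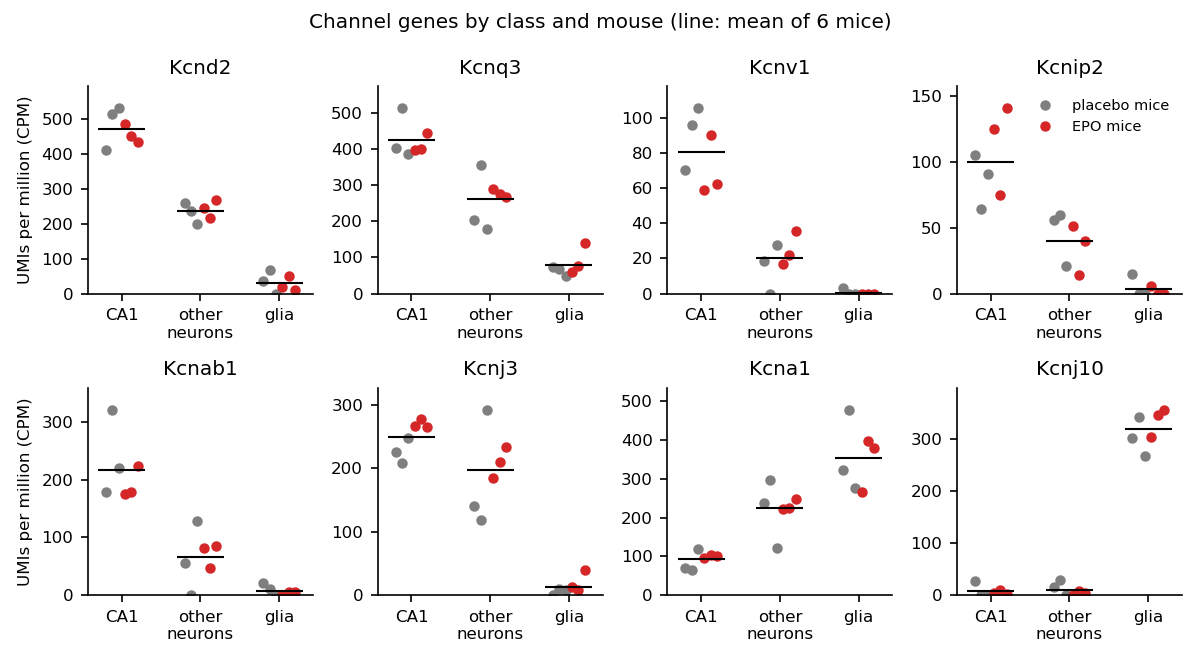
Level (CPM, linear axis from 0) of 8 potassium channel genes in CA1 pyramidal-like cells, other neurons and glia; each point is 1 mouse (grey placebo, red EPO) and lines are means of 6 mice. Kcnd2, Kcnq3, Kcnv1, Kcnip2, Kcnab1 and Kcnj3 step down in their means from CA1 to glia, and Kcna1 and Kcnj10 are highest in glia.

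The classes within these groups differed further, and these levels are a description without a test because several classes had few cells. Among glia, Kcna1 was highest in oligodendrocyte-like cells, with 502, 716 and 466 CPM after placebo and 429, 508 and 760 CPM after EPO. Oligodendrocyte precursor-like cells had 0 CPM in placebo mouse 1 and 135 and 31.3 CPM in EPO mice 4 and 6. The remaining mice had fewer than 5 of these cells. Astrocyte-like cells held 1 UMI of Kcna1 in all, in placebo mouse 3. After thinning every cell to 1500 UMIs, 54.3% of oligodendrocyte-like and 1.30% of astrocyte-like cells kept a Kcna1 UMI, against 86.8% and 1.30% before thinning at median depths of 5194 and 3079 UMIs. Kcna6 stood at 99.3 CPM in oligodendrocyte-like cells over all mice and at 17.9 CPM in astrocyte-like cells. Kcnk13, a tandem-pore channel, held 35 of its 36 UMIs in oligodendrocyte-like cells, in 5 of 6 mice, with 49.5 CPM in EPO mouse 4 and 0 in EPO mouse 6.

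Kcnk1 was highest in astrocyte-like cells, with 452, 365 and 153 CPM after placebo and 561, 483 and 882 CPM after EPO. Neurons held it too, at 36.3 to 106 CPM in CA1 pyramidal-like and 33.0 to 89.7 CPM in other glutamatergic-like cells. In oligodendrocyte-like cells Kcnk1 had 2 UMIs, 2.4 CPM. Thinned shares of cells with a Kcnk1 UMI were 46.8% of astrocyte-like and 0% of oligodendrocyte-like cells. Kcnj16, which pairs with Kcnj10 in astrocytes, had 84.8 to 349 CPM over the mice in astrocyte-like cells, 66.3 CPM in precursor cells and 0 UMIs in oligodendrocyte-like cells, below a limit of 3.55 CPM that a count of 0 allows. Kcnj10 itself stood in all 3 classes, at 262 ± 125 CPM in astrocyte-like and 356 ± 56.4 CPM in oligodendrocyte-like cells (SD, n = 6 mice) and at 395 ± 245 CPM in precursor cells (SD, n = 3 mice). Kcnk2, a further tandem-pore channel, and Kcnn2 were also seen in astrocyte-like cells, at 142 ± 91.4 and 164 ± 99.5 CPM (SD, n = 6 mice), against 10.0 ± 8.24 and 2.6 ± 4.14 CPM in oligodendrocyte-like cells. Glia of different mice held different mixtures: oligodendrocyte-like cells made up 7.32% to 27.9% and astrocyte-like cells 3.80% to 16.3% of the cells of a mouse.

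GABAergic-like cells reached 5 cells in 3 mice only. Kcnc1, the Kv3 channel of fast-spiking interneurons, had 455, 486 and 604 CPM in placebo mouse 5 and EPO mice 4 and 6, against 13.6 to 27.5 CPM in CA1 pyramidal-like cells over 6 mice. Other glutamatergic-like cells had 29.9 to 124 CPM of Kcnc1 over 6 mice. Kcnc2, its Kv3 relative, had 59.3, 66.0 and 302 CPM in the same 3 mice, with EPO mouse 6 far above the others. Kcnip1, a KChIP subunit, had 138, 107 and 126 CPM in GABAergic-like cells and at most 24.4 CPM in other glutamatergic-like cells of a mouse. Kcnmb2, a beta subunit of the large-conductance channel, had 12 of its 13 UMIs in GABAergic-like cells. It was named after its values were seen.

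Kcnf1, a silent subunit, had 66.9 CPM in other glutamatergic-like and 22.0 CPM in CA1 pyramidal-like cells over all mice. It was higher in the former in 5 of 6 mice, and placebo mouse 3 had no UMI of it in either class. Kcnj4, an inward rectifier of resting neurons, had 40.6 against 24.1 CPM over all mice, but it was lower in other glutamatergic-like cells of placebo mice 1 and 3, with 0 against 16.1 CPM in the latter. The other glutamatergic-like class fell into 2 clusters. The cluster led by Slc17a6 and Nts had 161 CPM of Kcnip4 and 61.8 CPM of Kcnab3, and the cluster led by Rxfp1 had 52.2 and 25.3 CPM. Median mitochondrial shares of these clusters were 5.06% and 21.6%, and median depths 8435.5 and 3789 UMIs. The part of either in the values was not tested. Among the 4 CA1 clusters Kcnab1 ran from 97.9 to 248 CPM and Kcnk1 from 14.5 to 97.9 CPM, while Kcnb2 ran from 31.6 to 54.1 CPM. The CA1 cluster with the lowest Kcnk1 had a median mitochondrial share of 17.6%, and that with the highest a share of 3.27% (its part was not tested). In mice with at least 5 cells of the cluster, Kcnk1 had 0 to 21.5 CPM in the former (5 mice) and 62.8 to 139 CPM in the latter (4 mice), and Kcnab1 had 66.5 to 129 and 232 to 315 CPM. These 2 clusters were picked as the lowest and highest in Kcnk1, so their order in that gene was fixed by the choice. Their cells had medians of 3620.5 and 10249.5 UMIs, and the part of this depth was not tested. These are descriptions without a test.

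Outside neurons and glia, Kcnj8, the pore of a channel gated by ATP, held 25 of its 27 UMIs in the endothelial-like class. All 25 came from 5 cells, 3 of placebo mouse 1 and 2 of EPO mouse 2. These 5 cells had a median of 59 UMIs of the mural markers (Vtn, Rgs5, Pdgfrb, Acta2, Myl9 and Higd1b) and 3 of the endothelial markers, while the other 43 endothelial-like cells had medians of 0 and 66. Kcnmb1, the beta subunit of the large-conductance channel known from smooth muscle, had all of its 8 UMIs in the endothelial-like class. Of these, 4 lay in the 5 cells with Kcnj8 and 4 in the other 43 cells, of which 14 held a mural marker UMI. Kcnk6 had 12 of its 19 UMIs in the 18 microglia-like cells. It too was named after its values were seen.

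Genes that work with these channels were counted by lists. Of 23 channel partners 16 could be tested, of which 10 were higher and 3 lower in CA1 pyramidal-like cells than in glia, with a median log2 fold change of 1.13 against 0.00 over all genes, of which 31.4% were higher and 30.8% lower. Dpp6, which binds Kv4 channels, was higher by 2.66 and Cntnap2, which clusters Kv1 channels on axons, by 3.46. Cntn2, its partner in that complex, was lower by -3.11, and Dlg1 and Ank3 were lower by -2.22 and -0.54. Against other neurons 3 partners were higher, Calm2, Calm3 and Cntnap2, and 2 were lower, Dpp10 at -3.28 and Dlg1 at -1.33, where 9.48% and 8.19% of all genes were higher and lower. Of 10 pumps and cotransporters that carry potassium 9 were tested, and 4 were higher and 4 lower in CA1 pyramidal-like cells than in glia, beside the same 31.4% and 30.8% of all genes. Among them the sodium pump subunit Atp1b1 was higher by 4.27 and the neuronal chloride exporter Slc12a5 by 4.06. The sodium pump subunits Atp1b2 and Atp1b3 and the chloride importer Slc12a2 were lower by -2.27, -3.06 and -5.61. Against other neurons 0 of the 9 were higher and 1 was lower, Slc12a2 at -0.76.

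EPO was compared with placebo per mouse, in sums over all retained cells, CA1 pyramidal-like cells, all glutamatergic-like cells and oligodendrocyte-like cells. No potassium channel gene passed the test in any of them. Of the members 44, 36, 40 and 3 could be tested in the 4 sums, and 0 had an adjusted p under 0.05 by edgeR, DESeq2 or limma, as did 0% of all genes by edgeR (by DESeq2 1 gene of all genes passed, over all retained cells). At an unadjusted p under 0.05 stood 1 member in all cells (Kcnab3), 0 in CA1 pyramidal-like cells, 1 in all glutamatergic-like cells (Kcnj4) and 0 in oligodendrocyte-like cells, beside 1.23%, 1.47%, 1.89% and 1.69% of all genes. The median log2 fold change of the tested members was 0.15 in all cells and 0.06 in CA1 pyramidal-like cells, against -0.01 and 0.01 over all genes. A missed threshold with 3 mice a group does not show equal levels, and the standard error of a member had a median of 0.34 on the log2 scale in CA1 pyramidal-like cells.

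In CA1 pyramidal-like cells the abundant channel genes stood close together. Kcnd2 had 411, 514 and 531 CPM with placebo and 486, 452 and 433 CPM after EPO, a log2 fold change of -0.05 ± 0.20 (edgeR, unadjusted p = 0.80). Kcnq3 differed by -0.00 ± 0.20 and Kcnma1 by 0.06 ± 0.22. Kcnj3 had 226, 209 and 249 CPM with placebo and 268, 278 and 265 CPM after EPO, groups that did not overlap at a log2 fold change of 0.23 ± 0.21 (unadjusted p = 0.29). Kcnj6 also did not overlap, at 39.6, 16.1 and 40.7 CPM with placebo and 56.7, 47.1 and 54.1 CPM after EPO (0.47 ± 0.34, unadjusted p = 0.18), with the lowest value in placebo mouse 3. These were 2 of the 36 members tested in CA1 pyramidal-like cells, 5.56%, and the groups did not overlap for 6.35% of all genes tested there. Kcnt1 and Kcnmb4, a beta subunit of the large-conductance channel, had the other small p-values among genes with higher values, 0.13 each. Among genes with lower values Kcnip3, Kcng2 and Kcnv1 stood at -0.63 ± 0.43, -0.61 ± 0.56 and -0.32 ± 0.29.

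**Figure D4:**
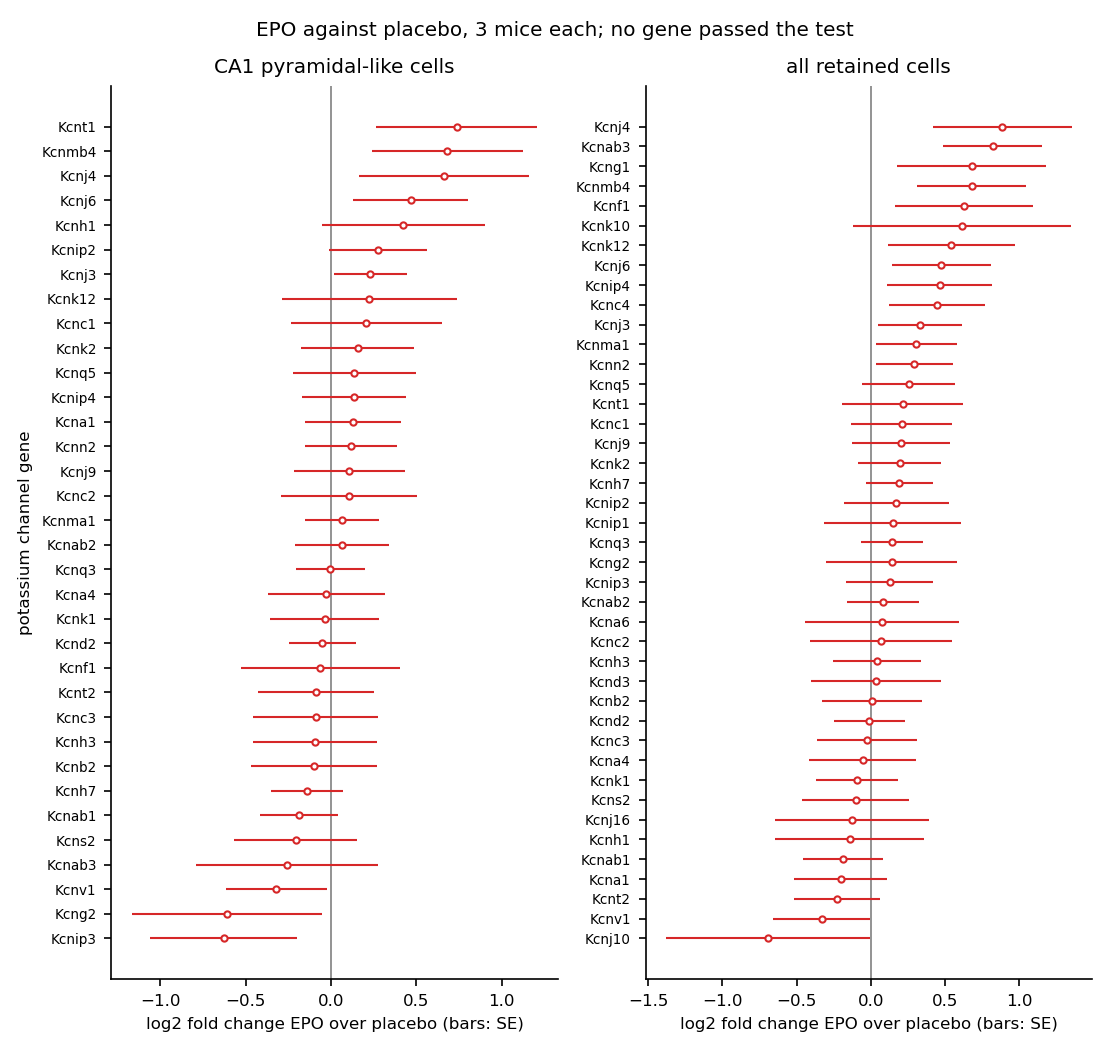
Log2 fold change of EPO over placebo (edgeR, 3 mice each, bars are standard errors) for potassium channel genes tested in CA1 pyramidal-like cells (left, 34 genes) and all retained cells (right, 42 genes). No gene passed the test, and values run from -0.63 to 0.74 on the left and from -0.69 to 0.89 on the right.

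The member with the smallest p over all retained cells was Kcnab3, a Kv1 beta subunit. It had 11.6, 14.7 and 16.2 CPM after placebo and 23.1, 24.1 and 29.6 CPM after EPO, without overlap (log2 fold change 0.82 ± 0.33, edgeR unadjusted p = 0.030, adjusted p = 1.0). The groups did not overlap for 4 of 44 members, 9.09%, and 5.85% of all genes over all retained cells, and for 3 of 40 members, 7.5%, and 6.56% of all genes in all glutamatergic-like cells. The difference of Kcnab3 was 0.74 within D1 and 0.66 within D2. In all glutamatergic-like cells the groups overlapped, at 18.5, 32.1 and 18.2 CPM against 28.2, 28.5 and 34.8 CPM. Kcnj4 had 14.2, 10.7 and 22.0 CPM with placebo and 12.7, 40.9 and 45.3 CPM with EPO in all glutamatergic-like cells (0.90 ± 0.41, edgeR unadjusted p = 0.036, adjusted p = 1.0). Its difference was 0.04 within D1 and 0.90 within D2, and EPO mouse 2 lay among the placebo mice. Kcnmb4 had 17.0, 10.7 and 22.9 CPM against 28.2, 25.6 and 35.7 CPM without overlap (0.57 ± 0.35, unadjusted p = 0.12). Kcnv1 went the other way, with 52.6, 64.2 and 94.6 CPM against 43.8, 60.6 and 54.0 CPM (-0.48 ± 0.28, unadjusted p = 0.10), as did Kcnab1 (-0.36 ± 0.24) and Kcns2 (-0.42 ± 0.33). Kcnj4 and Kcnab3 had more CPM in other glutamatergic-like than in CA1 pyramidal-like cells, and Kcnv1 fewer. The other glutamatergic-like cells made up 38.9%, 50% and 24.1% of the glutamatergic-like cells after placebo and 42.2%, 42.8% and 27.8% after EPO, and the part of this mixture in the values was not tested.

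**Figure D5:**
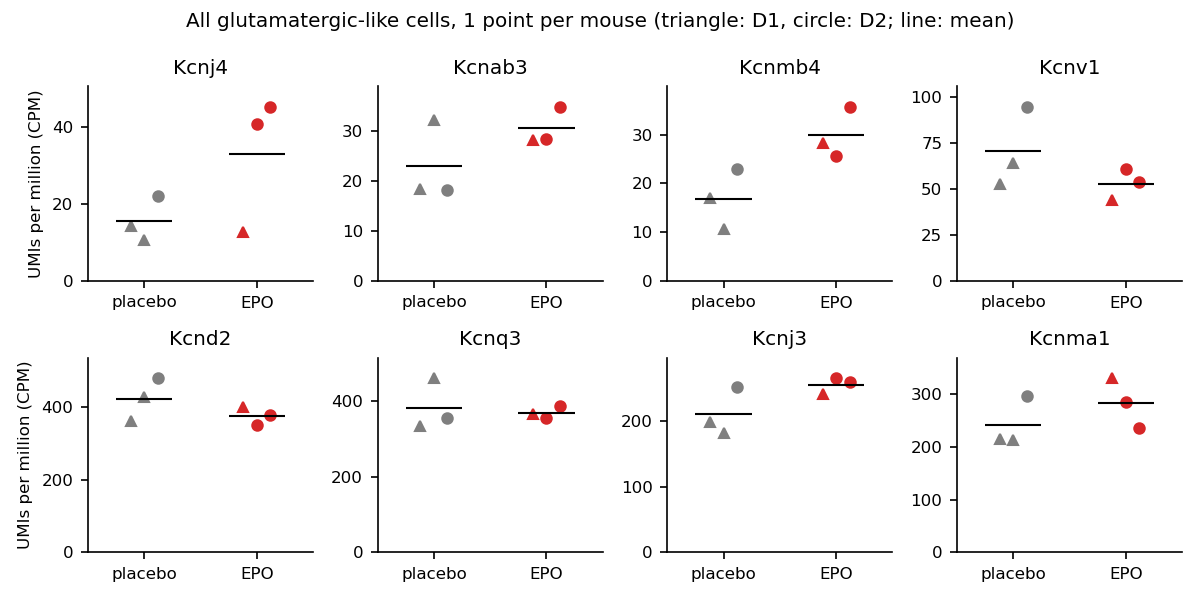
Level (CPM, linear axis from 0) of 8 potassium channel genes in all glutamatergic-like cells with placebo (grey) and EPO (red); each point is 1 mouse (triangles D1, circles D2) and lines are means of 3 mice. For Kcnmb4 the EPO mice, at 25.6 to 35.7 CPM, lie above the placebo mice, while for Kcnj4 EPO mouse 2, at 12.7 CPM, lies among them.

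In oligodendrocyte-like cells 3 members could be tested. Kcna1 differed by -0.03 ± 0.26, Kcnj10 by 0.01 ± 0.28 and Kcna6 by 0.50 ± 0.56 on the log2 scale between EPO and placebo. Kcnj10 had 333, 442 and 288 CPM with placebo and 388, 373 and 311 CPM after EPO, so that the groups overlapped. Over all retained cells Kcnj10 had 107, 176 and 25.5 CPM with placebo and 55.7, 78.5 and 47.6 CPM after EPO (-0.69 ± 0.69, edgeR unadjusted p = 0.35). Oligodendrocyte-like cells made up 15.3%, 27.9% and 9.24% of the cells in the placebo mice and 9.46%, 18.1% and 7.32% in the EPO mice. Astrocyte-like cells made up 12.3%, 16.3% and 3.80% with placebo and 6.76%, 5.17% and 11.6% after EPO. Precursor cells made up 4.29%, 4.65% and 1.09% with placebo and 2.70%, 5.17% and 4.88% after EPO. The part of this mixture in the Kcnj10 values was not tested. Of the 23 partners 18 and of the 10 pumps and cotransporters 9 were tested over all retained cells, and 0 passed the edgeR test in either list. At an unadjusted p under 0.05 stood 1 of each, among the partners Dpp10. Leaving out the shared barcodes, from EPO mouse 4 or from both mice, gave 0 members called in each of the 4 sums.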

How the data were processed

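Counts were used as deposited by the authors, a table of unnormalized UMI counts for 1000 barcodes of each mouse; per the labels' processing notes bcl2fastq 2.15, STAR 2.4.0 and mm10 were used. Missing values were set to 0. Potassium channel genes, lists and classes were chosen with earlier results of these data known. Retained cells (more than 1000 and at most 8000 genes, at most 40% of UMIs from 27 mitochondrial genes) were log-normalized, integrated between treatments (Seurat 5.3.0, R 4.3.3; 20 dimensions) and clustered (resolution 1), with Kcn genes kept out of the 1290 variable genes. For each marker the log2 of its mean level in a cluster was standardized across clusters. Clusters were named by the marker list with the highest mean of these scores. Only lists with 3 or more markers found in 10% or more of the cells of the cluster could be chosen. Glutamatergic clusters were divided further by the same rule. Doublets called by Scrublet in scanpy 1.11.5 (0.369% to 4.05% of cells, 18.6% in placebo mouse 3, which is not usable) were kept.

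UMIs were summed per class and mouse with at least 5 cells and tested by edgeR 4.0.16 (quasi-likelihood test, TMM scaling, filterByExpr with a minimum count of 10, mouse as a block between classes, Benjamini-Hochberg at 5%). The standard error is the log2 fold change over the root of F. The procedure was tested on simulated counts. Alternatives were DESeq2 1.42.0, limma 3.58.1 with a prior count of 2, other scaling, filters, clustering, cells, the D number and each mouse left out; leaving out shared barcodes was added after seeing the data. Named genes are the 12 with the most UMIs, up to 6 a direction per class comparison with the same sign in every mouse, up to 3 a direction with the smallest p per EPO comparison, class leaders by level and ratio, and a fixed list, 38 in all; the members of a call of at most 6 genes are also named. Some genes that these rules select are not reported here. Protein sequences were not used here. Gene symbols were matched to GENCODE vM21 for all 84 members.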

Additional observations from a re-analysis of the deposited data

Results flagged for a closer look

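Differences between 2 classes were examined in each of the 6 mice for 47 pairs of a named gene and a comparison. In 6 of them 1 mouse stood farther from the others than Dixon's 95% limit allows. Chance alone gives about 1 in 20 for independent values, but these pairs share their sums, so that rate need not hold. In each of the 6 a sum held no UMI, and its log2 level rests on an added prior count of 2. For Kcnab2, a beta subunit of Kv1 channels, EPO mouse 2 stood apart in CA1 pyramidal-like cells over glia, at a log2 difference of 4.57 against 1.85 to 2.43 in the other mice, and in other neurons over glia, at 4.14 against 1.32 to 2.07. Glia of EPO mouse 2 held no UMI of Kcnab2. The other 4 lay in placebo mouse 3, which had 8 CA1 pyramidal-like cells, 9 other neurons and 24 glia. In CA1 pyramidal-like cells over other neurons its log2 difference was 5.74 for Kcnab1 (0.69 to 1.80 in the other mice), 4.62 for Kcnn2 (-0.36 to 0.56) and 4.07 for Kcnv1 (0.78 to 1.79). For these 3 genes its other neurons held no UMI. In other neurons over glia its difference for Kcnq5 was 0, with no UMI in either, against 2.23 to 3.47 in the other mice.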

How the results depend on the processing

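Of 180 counts of called members under the alternatives, 173 stayed within 1.5 times the reported count, and every count after EPO was 0 under all alternatives run. Without a filter on low counts, 33 members were higher and 7 lower in CA1 pyramidal-like cells than in glia, 11 were lower than in other neurons and 40 were higher in other neurons than in glia, as more sparse genes entered the test. With limma 3 were higher and 1 lower in CA1 pyramidal-like cells than in other neurons; the cause was not tested. Leaving out 1 mouse at a time gave 20 to 27 higher and 4 to 4 lower in CA1 pyramidal-like cells than in glia, 5 to 7 higher and 4 to 10 lower than in other neurons (10 without placebo mouse 3), 20 to 30 higher and 3 to 4 lower in other neurons than in glia, and 0 to 0 after EPO in each sum. Of 1974 values of named members, 1959 kept their side of the threshold, 11 lost their call and 4 gained one; none of the called values changed sign. Among these values the lost calls were of Kcnh3, Kcnn2, Kcnab1, Kcnd2, Kcnt1 and Kcnt2, and the gained ones of Kcnt1 and Kcnq5. This list does not cover every called member. Limma called 1 gene lower than in other neurons where edgeR called 6, and of the lower genes that lost their call only Kcnt1 is listed. After EPO, where no value was called, 86 of 1132 values had the other sign. No paired analysis was possible because placebo and EPO mice share no replicate numbers. At this depth 57 members could not be tested between classes, and intervals and limits of a count of 0 cover counting error only.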
